A study of Mus musculus with 5 samples.

Results

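The genes described are the PTP4A phosphatases and their CNNM partners, 6 symbols that occupy 7 of the 17015 gene rows of an RNA-seq table from mouse tibialis anterior (TA) muscle. They are Ptp4a1, which is listed under 2 gene IDs, Ptp4a2, Ptp4a3, Cnnm2, Cnnm3 and Cnnm4, and every row with one of these symbols was kept. The set was chosen by measured values, the FPKM of these libraries, with the knowledge that Ptp4a1 was higher in the skmNrip1-/- libraries, so differences between the genotypes are given for these rows as a description, with standard errors and intervals and without p-values, and a count of calls among them restates that choice. The study asked what RIP140, the transcriptional coregulator encoded by Nrip1, does in skeletal muscle, and used the TA data to compare gene expression in muscle with and without it.

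TA was taken from sedentary male mice at 8 weeks of age. The WT control group (genotype label Ctrl) has 3 libraries and the skmNrip1-/- group (genotype label Nrip1KO) has 2. The study's legend for its TA comparison states 3 per group. Per the study's methods, skmNrip1-/- mice come from a cross of floxed Nrip1 mice (C57BL/6J) with C57BL/6JN mice that express Cre from the myogenin promoter, which acts in the skeletal muscle lineage, and controls are Cre-negative littermates. Muscle was lysed whole, so cells of vessels, nerve, connective tissue and blood, in which this Cre is not expressed, also contributed RNA. The labels do not state which mouse gave each library, and p-values below measure the spread between these libraries. Values are FPKM (fragments counted relative to transcript length in kilobases and to a measure of library size whose calculation is not given).

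PTP4A proteins, also called phosphatases of regenerating liver, are small cysteine phosphatases anchored to membranes by a prenyl group. They bind the CNNM proteins, membrane proteins that take part in magnesium transport, and binding of a PTP4A protein holds back magnesium efflux through its CNNM partner. PTP4A levels in cultured cells are known to rise when magnesium is scarce. In muscle, magnesium is needed with ATP by myosin, ion pumps and kinases.

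The catalytic site of the phosphatases is shown first, because each of the 3 PTP4A genes encodes it. In each coding sequence a script searched for the signature of cysteine phosphatases, that is a histidine codon, a cysteine codon, 5 codons of any kind and an arginine codon, and found 1 match. The 24 bases are printed 5′ to 3′ on the coding strand, from GENCODE M21 (GRCm38), and capitals mark bases that differ from Ptp4a1.
Ptp4a1: cattgtgtcgcaggccttggcaga
Ptp4a2: cattgtgtTgcaggATtGggAagG
Ptp4a3: caCtgtgtGgcGggcctGggAagG
Each of the other genes differed from Ptp4a1 at 6 of the 24 bases. The run starts at codon 103 in Ptp4a1 and Ptp4a3 and at codon 100 in Ptp4a2. In all 3 genes an intron interrupts it after base 23. In Ptp4a1 these bases lie in exon 4 (chr1:30944536-30944558, minus strand), in Ptp4a2 in exon 4 (chr4:129845170-129845192, plus strand) and in Ptp4a3 in exon 4 (chr15:73755402-73755424, plus strand). Exon 5 holds the last base in each gene. Over the whole coding sequence, Ptp4a1 was 76.2% identical to Ptp4a2 and 68.0% identical to Ptp4a3. The coding sequence has 173 codons in Ptp4a1 and in Ptp4a3 and 167 in Ptp4a2. No 31-base word is shared between the transcripts of Ptp4a1, Ptp4a2 and Ptp4a3, so no stretch of that length is identical between the 3 genes.

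The targeted gene was examined before the members. Nrip1 (ENSMUSG00000048490) measured 4.64, 7.69 and 6.55 FPKM in WT control replicates 1 to 3, and 25.3 and 22.5 FPKM in the libraries labelled skmNrip1-/-. The gene labelled as deleted was therefore higher in both of those libraries, with a log2 fold change of 1.94 ± 0.21 (SE; adjusted p = 0.0261, limma). Per the study's methods, the loxP sites flank the exon that holds the start and stop codons. FPKM per gene do not separate exons, and whether the remaining exons account for these values was not tested. The study checked this line by Nrip1 mRNA and RIP140 protein in gastrocnemius and heart. It also compared Nrip1 mRNA by RT-qPCR between this line, another Nrip1 knockout line and their controls, without naming the tissue in the legend. TA is not named for either check. Every direction given below rests on the labels. The FPKM values of a library summed to between 969144 and 1144714 in WT control and to 1286254 and 1288038 in the libraries labelled skmNrip1-/-. From the steps between low values, the library size by which fragments had been divided ranged from 0.817 to 1.10 of that of WT control replicate 1.

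The most abundant member was Ptp4a3, also known as PRL-3. Ptp4a3 (ENSMUSG00000059895, chr15:73723145-73758766, plus strand) measured 606, 545 and 629 FPKM in WT control replicates 1 to 3 and, in those labelled skmNrip1-/-, 607 and 553 FPKM. The ranges of the groups overlapped, with means of 594 ± 43.5 (SD, n = 3) and 580 ± 37.8 (SD, n = 2). Its log2 fold change was -0.03 ± 0.12 (SE; 95% interval -0.32 to 0.26). Of the 12148 genes that averaged 0.5 FPKM or more over the libraries and were tested, 99.1% had a lower WT control mean than Ptp4a3.

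Ptp4a2, or PRL-2, is the broadly expressed member of the family. In these libraries Ptp4a2 (ENSMUSG00000028788, chr4:129811219-129850003, plus strand) measured 243, 258 and 262 FPKM in WT control and 247 and 244 FPKM in the libraries labelled skmNrip1-/-. Both values fell inside the WT control range. The log2 fold change was -0.05 ± 0.10 (SE; 95% interval -0.29 to 0.19).

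Ptp4a1, or PRL-1, was the member with the largest difference between the groups. Its row ENSMUSG00000117310 (chr1:30940302-30949770, minus strand) measured 21.4, 22.8 and 19.7 FPKM in WT control replicates 1 to 3 and, in those labelled skmNrip1-/-, 69.3 and 82.9 FPKM. The lowest value of the second group was above the highest of the first. The means were 21.3 ± 1.55 (SD, n = 3) and 76.1 ± 9.58 (SD, n = 2) FPKM, a ratio of 3.57, and the log2 fold change was 1.83 ± 0.12 (SE; 95% interval 1.53 to 2.13). By log2 fold change the row stood at place 45 from the highest of the 12148 genes tested. Genes were called at a limma adjusted p up to 0.05 together with a change of 1.2-fold or more. This row was inside those limits, which is no independent support because the row was chosen on the same libraries. Without skmNrip1-/- replicate 2 its log2 fold change was 1.70 and it was outside them.

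The other Ptp4a1 row, ENSMUSG00000026064 (chr1:30940302-30949309, minus strand), had far lower values. It measured 0.493, 0.250 and 0.250 FPKM in WT control and 0.226 and 0.941 FPKM in the libraries labelled skmNrip1-/-. The 2 values of the second group fell on either side of the WT control range. The row was under the mean of 0.5 FPKM and was not tested. With no minimum its log2 fold change was 0.48 ± 0.53 (SE; 95% interval -0.80 to 1.77).

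**Figure D1:**
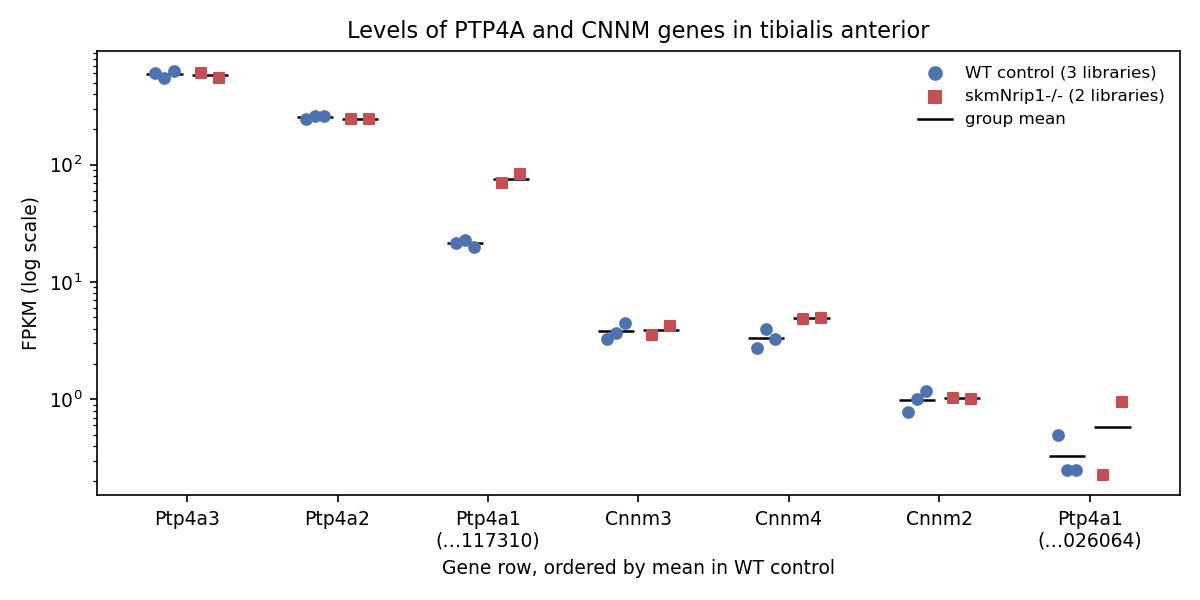
FPKM (vertical axis, log scale) of the 7 rows in each library, with WT control as circles, skmNrip1-/- as squares and group means as lines. The Ptp4a1 row ENSMUSG00000117310 sits at 19.7 to 22.8 FPKM in WT control and at 69.3 and 82.9 FPKM in skmNrip1-/-, the points of Cnnm4 are also separate, and those of the other 5 rows overlap.

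The IDs of Ptp4a1 describe 1 locus with alternative first exons. In GENCODE M21 the main transcript of ENSMUSG00000117310 (ENSMUST00000027232) begins with an exon of 207 bases, chr1:30949549-30949755, and that of ENSMUSG00000026064 (ENSMUST00000232841) with an exon of 313 bases, chr1:30948997-30949309. The first exons start 446 bases apart. Exons 2 to 5 are the same, and exon 6 ends 1 base apart, with 3021 bases in ENSMUST00000027232 and 3022 in ENSMUST00000232841. The coding sequences are identical and all of their bases lie in exons 2 to 6. Over all annotated transcripts, 3923 exon bases are common to both IDs, which is 94.6% of the exon bases of ENSMUSG00000117310 and 70.8% of those of ENSMUSG00000026064. Only 222 bases belong to ENSMUSG00000117310 alone. How the quantification divided fragments of the shared exons between the IDs is therefore uncertain, and the values of the separate rows carry that limit. Summed, the rows gave 21.9, 23.0 and 19.9 FPKM in WT control and 69.6 and 83.8 FPKM in the libraries labelled skmNrip1-/-. The summed log2 fold change was 1.82 ± 0.13 (SE; 95% interval 1.52 to 2.12), close to that of ENSMUSG00000117310 by itself. In every library between 97.8% and 99.7% of the sum stood under ENSMUSG00000117310.

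**Figure D2:**
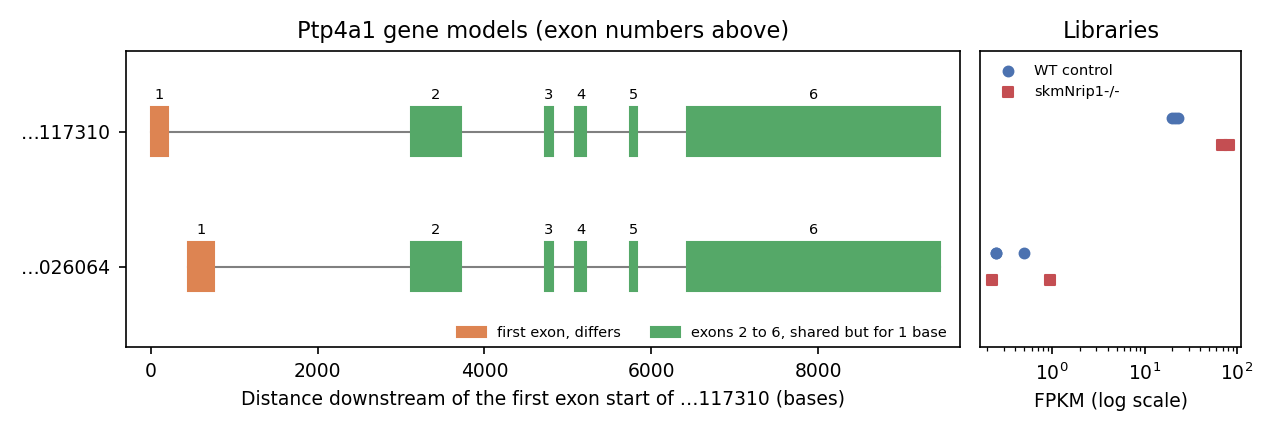
Left, exons of the main transcript of each Ptp4a1 gene ID (boxes, numbered) against the distance in bases from the first exon start of ENSMUSG00000117310; right, FPKM of each ID by library on a log scale, WT control as circles and skmNrip1-/- as squares. The models share exons 2 to 6 but for 1 base at the end of exon 6 and differ in the first exon, whose starts are 446 bases apart, and ENSMUSG00000117310 carries at least 97.8% of the summed FPKM.

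On the side of lower coordinates the next annotated gene was Phf3, a PHD finger gene that lies 66380 bases from Ptp4a1. Phf3 measured 7.04, 8.65 and 7.50 FPKM in WT control and 8.23 and 10.1 FPKM in the libraries labelled skmNrip1-/-, and these ranges overlapped. Its log2 fold change was 0.24 ± 0.15 (SE; adjusted p = 0.591, limma). The next gene on the other side, AC153137.1, lies closer, at 27472 bases from ENSMUSG00000117310, and was not analysed here.

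Among the CNNM genes, Cnnm4 was the only one whose libraries did not overlap between the groups, a state found in either direction in 30.2% of all genes tested. CNNM4 is a magnesium transporter of the basolateral membrane of epithelia. Cnnm4 (ENSMUSG00000037408, chr1:36471620-36508764, plus strand) measured 2.76, 3.95 and 3.28 FPKM in WT control and 4.84 and 4.96 FPKM in the libraries labelled skmNrip1-/-. The means were 3.33 ± 0.598 (SD, n = 3) and 4.90 ± 0.0852 (SD, n = 2) FPKM, a ratio of 1.47. Its log2 fold change was 0.56 ± 0.17 (SE; 95% interval 0.15 to 0.97), and the row was not called. It stood at place 476 from the highest log2 fold change.

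Cnnm3 lies 3102 bases downstream of Cnnm4 on the same strand, with no annotated gene between them, and its protein is a partner of PTP4A2. Cnnm3 (ENSMUSG00000001138, chr1:36511867-36528237, plus strand) measured 3.29, 3.65 and 4.44 FPKM in WT control and 3.51 and 4.25 FPKM in the libraries labelled skmNrip1-/-. Both of the latter fell inside the WT control range, and the log2 fold change was 0.04 ± 0.17 (SE; 95% interval -0.37 to 0.45). The neighbours thus gave different values, one with separate groups and one with overlapping groups, but the difference between the genes was not tested.

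Cnnm2, whose human counterpart is mutated in inherited magnesium wasting by the kidney, was the lowest of the CNNM rows. Cnnm2 (ENSMUSG00000064105, chr19:46761596-46880192, plus strand) measured 0.777 to 1.19 FPKM in WT control and 1.03 and 1.01 FPKM in the libraries labelled skmNrip1-/-. The groups overlapped, and the log2 fold change was 0.06 ± 0.23 (SE; 95% interval -0.50 to 0.62). An estimated 179 to 275 fragments per library stood behind Cnnm2, compared with 578 to 1081 behind Cnnm3 and Cnnm4 and 3746 to 15210 behind Ptp4a1 (ENSMUSG00000117310). These estimates use the length of the main transcript and cover counting only.

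Of the 6 rows tested, 1 was called higher and 0 lower, while 0.37% of the 12148 genes were called higher and 0.0823% lower. Both libraries labelled skmNrip1-/- were above every WT control library in 2 of the 6 rows, Ptp4a1 and Cnnm4, and this was so for 15.8% of all genes tested. Since Ptp4a1 was picked with this contrast known, nothing is read from these counts. The median log2 fold change of the 6 rows was 0.05, beside -0.00 for all genes tested, and without Ptp4a1 it was 0.04. When each library was rescaled to a common sum (TPM), the median of all genes moved to -0.29 and the values of Cnnm2 and Cnnm3 changed sign, to -0.21 and -0.25. Relative to that median the TPM values were 1.82 for Ptp4a1, 0.56 for Cnnm4, 0.08 for Cnnm2, 0.04 for Cnnm3, -0.06 for Ptp4a2 and -0.04 for Ptp4a3.

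FPKM are per length, which allows the levels of the members to be ordered within a library. In WT control, Ptp4a3 was above Ptp4a2 by 1.22 ± 0.12 on the log2 scale (SD, n = 3), Ptp4a2 above Ptp4a1 by 3.57 ± 0.13 and Ptp4a1 above Cnnm3 by 2.47 ± 0.30, in 3 of 3 libraries each time. Cnnm3 and Cnnm4 did not differ beyond their spread, with a difference of 0.19 ± 0.27 and Cnnm3 higher in 2 of 3 libraries. Cnnm4 was above Cnnm2 by 1.66 ± 0.25 in 3 of 3 libraries. An exact test on 3 libraries cannot reach p = 0.05, and none is given. In the libraries labelled skmNrip1-/- the order was the same except for the CNNM pair, where Cnnm4 was above Cnnm3 in 2 of 2 libraries. There, Ptp4a2 was above Ptp4a1 by 1.70 on the log2 scale, less than in any WT control library.

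The sum over the PTP4A genes was set mostly by Ptp4a3 and Ptp4a2. It was 871, 826 and 912 FPKM in WT control and 924 and 881 FPKM in the libraries labelled skmNrip1-/-, and the groups overlapped. Ptp4a1 made up 2.52%, 2.79% and 2.19% of it in WT control and 7.53% and 9.51% in the libraries labelled skmNrip1-/-. Its share was thus higher in both of the latter, yet remained the smallest of the 3 genes in all 5 libraries. Ptp4a3 made up 66.0% to 69.6% of the sum in WT control and 65.7% and 62.8% in the other group.

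The CNNM rows summed to 6.82, 8.60 and 8.91 FPKM in WT control and to 9.39 and 10.2 FPKM in the libraries labelled skmNrip1-/-. Cnnm4 held 40.4%, 45.9% and 36.8% of that sum in WT control and 51.6% and 48.5% in the libraries labelled skmNrip1-/-. Cnnm3 held 42.4% to 49.9% in WT control and 37.4% and 41.6% in the other group. As transcripts, the PTP4A sum exceeded the CNNM sum 128-, 96.0- and 102-fold in WT control and 98.4- and 86.2-fold in the libraries labelled skmNrip1-/-, and these ranges overlapped. Protein was not measured in these data.

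**Figure D3:**
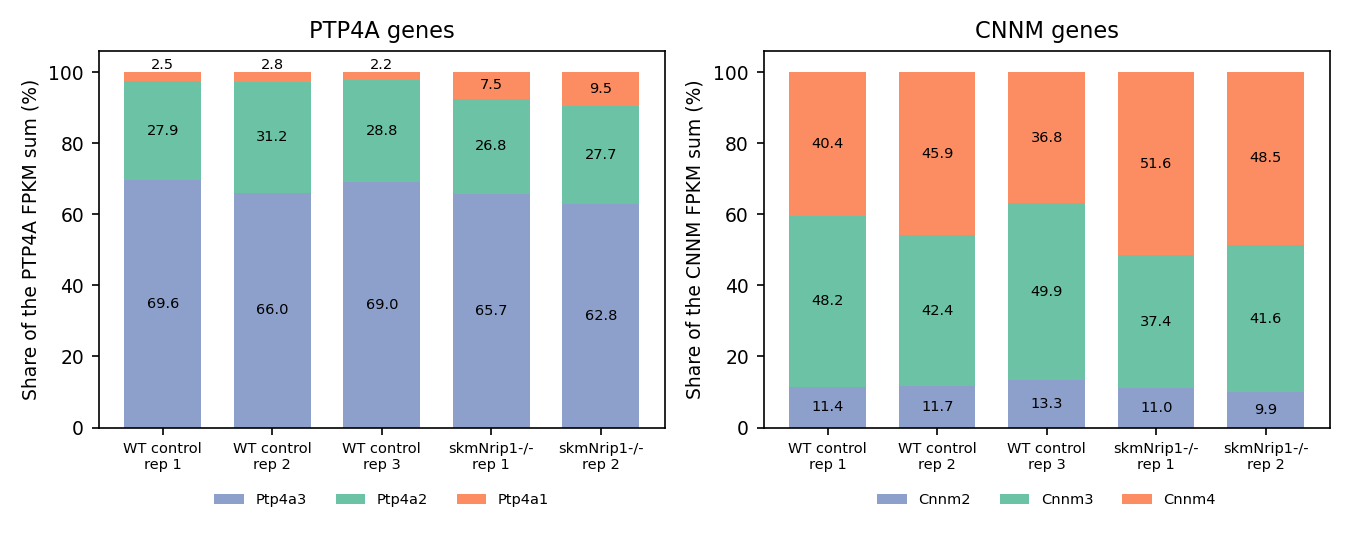
Stacked bars give the share (percent) of the summed FPKM of the PTP4A genes, left, and of the CNNM genes, right, in each of the 5 libraries; both Ptp4a1 rows are added together. The Ptp4a1 share is 2.19% to 2.79% in WT control and 7.53% and 9.51% in skmNrip1-/-, and the Cnnm4 share is 36.8% to 45.9% and 51.6% and 48.5%.

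The genes whose profile over the 5 libraries was most like that of Ptp4a1 (ENSMUSG00000117310) were Ackr3, Fabp3 and Tmem37. Likeness was the root mean square difference of log2 values, each gene centred on its WT control mean, and it was 0.0768 for Ackr3, 0.113 for Fabp3 and 0.177 for Tmem37. Ackr3, an atypical chemokine receptor, measured 5.46, 5.91 and 4.74 FPKM in WT control and 19.5 and 21.6 FPKM in the libraries labelled skmNrip1-/-. Fabp3, the fatty acid binding protein of heart and oxidative muscle, went from a mean of 492 to a mean of 1865 FPKM. These genes were chosen for this pattern, which is why no test is given. For the row ENSMUSG00000026064 the closest were Cyp26b1 (0.155), Mup20 (0.163) and Mup3 (0.229), none of them called. The last 2 belong to a family of near-identical genes and their values are uncertain.

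Other genes of magnesium transport were taken as a list of 19, of which 18 were in the table and 13 reached the minimum. By limma 0 of the 13 were called in either direction, beside 0.453% of the 12148 genes tested. At an unadjusted p of 0.05 or less, 1 was higher and 0 were lower, beside 798 higher and 647 lower of all genes tested. Both libraries labelled skmNrip1-/- lay above WT control in 2 of the 13 genes, compared with 15.8% of all genes. The gene higher at that unadjusted p was Slc41a1, which encodes a sodium-dependent magnesium exchanger. Slc41a1 measured 20.3, 34.0 and 29.2 FPKM in WT control and 56.2 and 55.8 FPKM in the libraries labelled skmNrip1-/-, and the groups did not overlap. Its log2 fold change was 1.04 ± 0.21 (SE; adjusted p = 0.141, limma), with adjusted p-values from 0.0817 to 0.536 under the alternatives tried. The smallest value of the list was that of Magt1, a subunit of the oligosaccharyltransferase also described as a magnesium transporter, at -0.24 ± 0.23 (SE; adjusted p = 0.749, limma). The median of the 13 genes was -0.00, the same as that of all genes to this precision. Cnnm1, the remaining member of the CNNM family, was under the minimum in all 5 libraries.

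The list of related phosphatases held 35 other genes of the dual-specificity type, of which 31 reached the minimum. By limma 0 of the 31 were called, beside 0.453% of all genes tested. At an unadjusted p of 0.05 or less, 1 was higher and 5 were lower in the libraries labelled skmNrip1-/-, beside 798 higher and 647 lower of the 12148 genes tested. The lowest value was that of Dusp14, a phosphatase of MAP kinases and of TAK1 signalling, which measured 4.29, 3.86 and 4.49 FPKM in WT control and 1.74 and 2.54 FPKM in the other group. Its groups did not overlap, and its log2 fold change was -0.97 ± 0.19 (SE; adjusted p = 0.124, limma), with adjusted p-values from 0.0513 to 0.486 under the alternatives. Rngtt, the mRNA capping enzyme, had the highest value at 0.48 ± 0.20 (SE; adjusted p = 0.412, limma). Both libraries labelled skmNrip1-/- lay below WT control in 9 of the 31 genes, compared with 14.4% of all genes. The median of the list was -0.01. After rescaling to TPM, which moved the median of all genes to -0.29, 1 gene of this list was called lower. It was Dupd1 (Dusp29, a muscle phosphatase), at -1.03 (adjusted p = 0.0448, limma). Before that rescaling Dupd1 stood at -0.74 ± 0.18 (SE; adjusted p = 0.203, limma) and was not called.

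**Figure D4:**
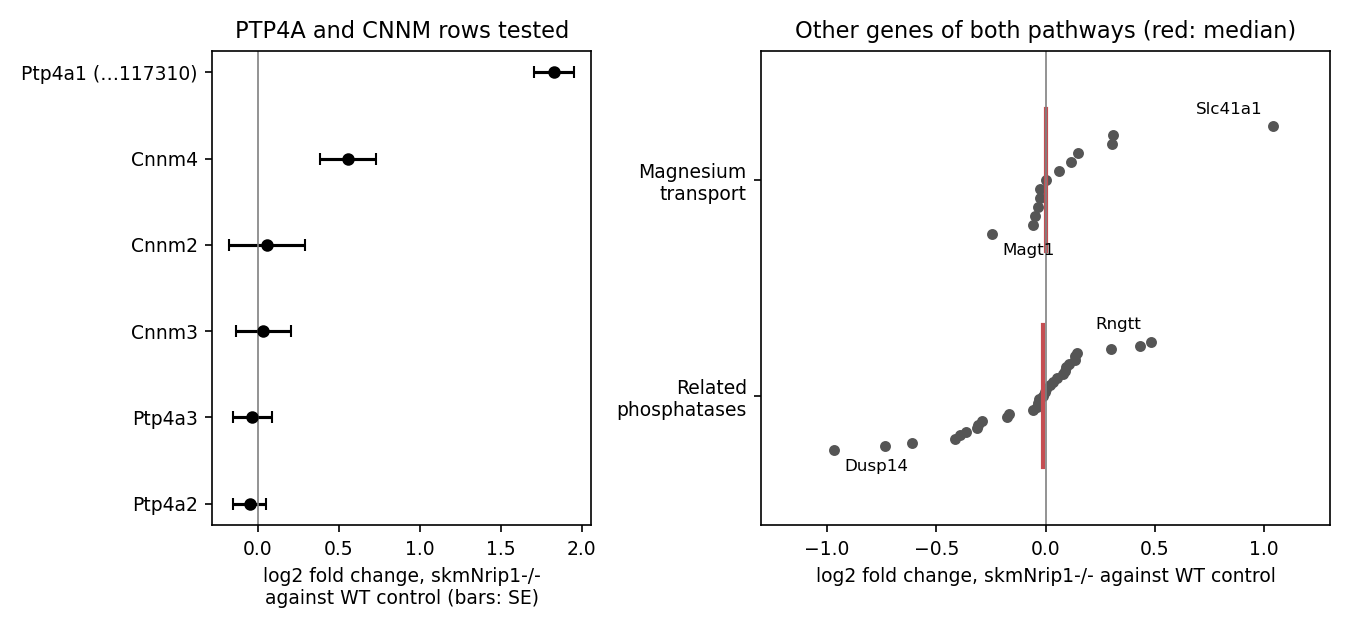
Left, log2 fold change of the 6 rows tested with bars of 1 SE; right, log2 fold change of each tested gene of the magnesium transport list (13 genes) and of the related phosphatases (31 genes), with list medians in red. Ptp4a1 stands at 1.83 and Cnnm4 at 0.56, Slc41a1 is the highest listed gene at 1.04 and Dusp14 the lowest at -0.97, and the small positive values of Cnnm2 and Cnnm3 turn negative after rescaling to TPM.

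Cell composition was looked at through marker lists, since in whole muscle fewer cells of a type and less RNA per cell cannot be told apart. Skeletal muscle genes dominated all libraries. The 8 markers listed are mostly genes of fast fibers, so their sum does not stand for all muscle fibers. They summed to between 81891 and 113648 FPKM in WT control and to 76613 and 79875 FPKM in the libraries labelled skmNrip1-/-. Those sums did not overlap, with 3 of the 8 markers separate and lower (14.4% of all genes tested), although no marker was called. The 5 blood markers summed to between 511 and 764 FPKM in WT control and to 827 and 996 FPKM in the other group, with 4 of 5 separate and higher (15.8% of all genes tested) and 3 of 5 higher at an unadjusted p of 0.05 or less (798 of the 12148 genes). The sums of slow fiber, endothelium, macrophage, adipocyte, Schwann cell and fibroblast markers overlapped between the groups. Within the slow fiber list, 2 myosin light chain genes lay apart in opposite directions. Myl2 measured 2.03, 1.85 and 9.68 FPKM in WT control and 42.1 and 33.6 FPKM in the other group, and Myl3, which made up most of the sum, measured 89.6, 124 and 285 FPKM and then 54.1 and 71.3 FPKM. Of the 3 satellite cell markers, 1 reached the minimum. The 3 summed to 1.02 to 1.27 FPKM in WT control and to 0.820 and 0.997 FPKM in the libraries labelled skmNrip1-/-. These low sums lay close together without overlap. No marker was listed at 0 in any library, and the part of these shifts in the values of Ptp4a1 and Cnnm4 was not tested.

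The stretches around the transcription starts were read from the RefSeq promoter table (GRCm38.p6), which holds 250 bases before and 50 after a start and has an entry for 5 of the 6 symbols. Ptp4a3 has no entry there. Ptp4a1 has 1 entry, matched by symbol, and which of its alternative first exons that entry covers was not examined. The words TCAAGGTCA of the estrogen-related receptors and CCGGAAG of GABPA and the spaced repeat of PPAR with RXR, searched on both strands, occurred in 0.423%, 8.86% and 0.0396% of the 32851 promoters and in 0 of the 5 member promoters. The members' promoters were rich in G and C, at 72.3% for Ptp4a1, 81.7% for Ptp4a2, 66.7% for Cnnm2, 70.7% for Cnnm3 and 76.3% for Cnnm4, where the median of all promoters was 52.7%. A match or its absence describes letters in this window and no binding.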

How the data were processed

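RNA from TA muscle was sequenced by the authors as paired-end reads and quantified with Salmon 1.10.2 on mm10, summarized with tximport. The authors deposited FPKM per gene and library, whose calculation and annotation release are not given in the sources used here. Rescaling these FPKM by the median of ratios left the median log2 fold change of all genes at -0.0005. Rescaling to a common sum moved it to -0.29, so the FPKM already shared a median-of-ratios scale. Columns of the authors' own comparison (DESeq2 1.44.0) were not used. Libraries were grouped by their genotype labels.

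Log2(FPKM + 0.1) was fitted with limma 3.58.1 in R 4.3.3 (eBayes with intensity trend), all 5 libraries in 1 fit, and p-values were adjusted by Benjamini-Hochberg across the 12148 genes averaging 0.5 FPKM or more. Fold changes understate those of low genes. The fit was tested on simulated data. Python 3.11.15, pandas 2.3.3, numpy 2.4.6 and Biopython 1.88 handled tables and sequences. GENCODE M21 holds 16996 of the 17015 gene IDs, 16919 with the same name, and gave coordinates and transcripts on GRCm38, the assembly of mm10.

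FPKM are not counts. The FPKM worth of 1 fragment was estimated, after seeing the data, from low values of genes with 1 transcript, of which at least 99.3% were whole within 0.1 fragment. Fragment numbers derived from it are estimates.

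Genes named are the 7 rows, Nrip1, neighbours of Ptp4a1, the listed genes that were called or had the largest and smallest change, and the 3 genes most like each Ptp4a1 row. Members and lists were chosen with earlier results of these data known. Dupd1 was named because it was called after rescaling to TPM. Alternatives were other pseudocounts, minimums, scalings, moderation and thresholds, a replicate block, the summed Ptp4a1 rows and leaving out each library.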

Additional observations from a re-analysis of the deposited data

How the results depend on the processing

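Ptp4a1 (ENSMUSG00000117310) kept a positive log2 fold change in all 15 alternative fits, from 1.53 to 1.96, and Cnnm4 did so from 0.27 to 0.69. Fits with another minimum or moderation leave a log2 fold change as it is by construction, so their agreement shows nothing. The other fits reuse the libraries on which Ptp4a1 was chosen. Values of the other tested members ranged from -0.35 to 0.19, and after rescaling to TPM they fell with the median of all genes, which that scaling moved to -0.29. The number of members called was 1, and between 0 and 1 when each library was left out in turn; the 0 came without skmNrip1-/- replicate 2, which leaves 1 library in that group, assumed to vary like the others. Of the magnesium transport list 0 were called in all 17 alternatives, and of the related phosphatases 1 after rescaling to TPM and 0 in the others. Over all genes, 55 calls (45 higher, 10 lower) became 93 after rescaling to TPM (30 higher, 63 lower), 25 without the intensity trend, 17 with the limit on adjusted p at 0.01, and between 9 and 71 when a library was left out, the 9 without skmNrip1-/- replicate 2, with 16 without skmNrip1-/- replicate 1, 22 without WT control replicate 3 and 30 without WT control replicate 1. With the replicate number as a block, 22 genes were called, and the log2 fold change of Ptp4a1 was 1.77. Number 3 occurs in WT control only, so the block takes WT control replicate 3 out of the genotype contrast. The members' log2 fold changes were therefore the same as in the fit without that library. The labels share 2 numbers between the groups and do not say what a number stands for. Same-numbered libraries correlated at 0.06 and 0.10 in their deviations, and since the deviations of the 2 skmNrip1-/- libraries mirror each other, this does not show whether the numbers pair the libraries. Apart from the shift that a scaling brings by its construction and the fewer libraries, the cause of these changes was not tested. With 2 libraries in 1 group, intervals of Cnnm2 and Cnnm3 reach from -0.50 to 0.62 and from -0.37 to 0.45. Differences inside these intervals are not excluded, and the intervals are not limits of detection. In the fit of all libraries, which called 55 genes, Cnnm4 at 0.56, Slc41a1 at 1.04 and Dusp14 at -0.97 were not called.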
